A study of Mus musculus with 2 samples.

Results

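Cytochrome P450 enzymes are haem proteins that insert oxygen into small molecules, and 94 of the 21938 protein-coding genes of the mouse annotation carried a symbol of the form Cyp, family number, letter and member number or were Cyp20a1 or Cyp51. Of these, 75 belonged to families 1 to 4, 15 to the steroid and sterol families (7, 8, 11, 17, 19, 21, 24, 27, 39, 46 and 51) and 4 to families 20 and 26. A further 6 P450 genes whose symbols have a different form (Cyp2ab1, Cyp3a41a, Cyp3a41b, Cyp4a12a, Cyp4a12b and Cyp4a30b) fell outside this choice, and none of them had a promoter peak in any list. Chromatin accessibility was measured by DNase-seq, in which the enzyme DNase I cuts nuclear DNA where it is open. The tissue was thymus, where T cells develop. It came from adult female B6CASTF1/J mice, which are B6 by CAST hybrids, and the labels give an age of 18 to 20 months and no treatment. Both libraries belonged to this 1 group and were numbered as replicates 1 and 2. They share a donor record but not a biosample record, and since no source states that separate animals were used, differences between them may be technical only. There was no group of another age, sex or tissue to compare with. Whole thymus mixes cell types, so fewer cells of a type and less accessible chromatin per cell cannot be told apart.

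Families 1 to 4 hold most of the enzymes that oxidise drugs, environmental chemicals and fatty acids, and many of them are made mainly in liver, gut, kidney or skin. The steroid and sterol families act on the body's own lipids: they make cholesterol, bile acids, steroid hormones and active vitamin D, or break them down. Family 26 degrades retinoic acid, and local synthesis of glucocorticoids by cells of the thymus has been described. P450 enzymes need electrons from partner proteins, either P450 oxidoreductase in the endoplasmic reticulum or ferredoxin in mitochondria.

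Each library came with a shorter, main peak list and a longer one; the main lists held 50648 and 49872 peaks in replicates 1 and 2, and the longer ones 77453 and 79004. Each peak has 1 signal value on a scale that is not stated, with a median over the main list of 1.66 in replicate 1 and 1.43 in replicate 2, and the sequencing depth is unknown. A gene is called open here if the centre of a main-list peak lay within 1 kb of one of its start sites in both libraries, with start sites taken from the basic transcript set of GENCODE M21. The promoters of 10 of 10 T cell marker genes were open, as were those of 2 of 6 thymic epithelial markers (Ccl25, whose peak also lay within 1 kb of the start of Elavl1, and Aire, but not Foxn1, Psmb11, Krt5 or Krt8). Of other cell types, 0 of 6 hepatocyte, 0 of 6 adrenal and gonad, 0 of 5 B cell, 1 of 5 adipocyte, 1 of 5 macrophage and 2 of 4 fibroblast markers were open. The summed signal of the T cell markers was 63.4 and 67.6 in replicates 1 and 2, against 14.2 and 10.3 for thymic epithelium (9.64 and 7.35 of it at Ccl25). The sum was 5.75 and 3.18 for fibroblasts, 0.796 and 0.731 for macrophages and 0.5995 and 0.3914 for adipocytes. For B cells it was 0 and 1.30, from main-list peaks of Ms4a1 and Pax5 in replicate 2 alone. It was 0 in both for hepatocytes and for adrenal and gonad cells. The lists differ in length, and the sums were not scaled for that.

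The sequences below are the bases before the start sites of the 3 family 1 to 4 genes and the 3 steroid and sterol genes with the highest promoter signals, cut to the stretch inside a promoter peak that is in no annotated exon. They are shown because these 6 promoters had the highest mean signals of both libraries in each class, although Cyp1b1 (5.32) exceeded Cyp2u1 (4.49) in replicate 1. The Cyp2r1 stretch lay outside the strongest promoter peak of that gene, which gave its signal and was at chr7:114562521-114562720 in replicate 1. Each is read 5′ to 3′ on the strand of its gene from the GRCm38 (mm10) assembly, and capitals mark any of the short motifs searched on both strands and listed further on. Cyp4f13 lies at chr17:32947403-32947552 and Cyp2r1 at chr7:114562973-114563122, Cyp2u1 at chr3:131303295-131303360 and Cyp51 at chr5:4104747-4104880, all on the minus strand. Cyp46a1 lies at chr12:108334191-108334340 and Cyp39a1 at chr17:43667215-43667320, both on the plus strand.
Cyp4f13: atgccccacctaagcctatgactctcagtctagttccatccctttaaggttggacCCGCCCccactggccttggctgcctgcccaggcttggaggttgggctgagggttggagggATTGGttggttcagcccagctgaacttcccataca
Cyp2r1: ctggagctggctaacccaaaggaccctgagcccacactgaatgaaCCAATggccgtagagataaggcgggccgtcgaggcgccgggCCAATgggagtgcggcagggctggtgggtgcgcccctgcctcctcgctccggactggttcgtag
Cyp2u1: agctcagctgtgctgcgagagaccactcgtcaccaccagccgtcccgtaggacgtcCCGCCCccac
Cyp46a1: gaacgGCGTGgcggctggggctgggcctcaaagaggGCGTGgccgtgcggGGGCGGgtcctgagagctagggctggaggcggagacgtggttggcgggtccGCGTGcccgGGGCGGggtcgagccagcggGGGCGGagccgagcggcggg
Cyp51: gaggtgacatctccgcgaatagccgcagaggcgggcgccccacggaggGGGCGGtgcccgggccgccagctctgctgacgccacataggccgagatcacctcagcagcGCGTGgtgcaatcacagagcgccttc
Cyp39a1: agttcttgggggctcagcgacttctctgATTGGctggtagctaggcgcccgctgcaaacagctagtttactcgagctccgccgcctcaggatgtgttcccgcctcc
The 6 stretches showed a GC box (GGGCGG or CCGCCC) in those of Cyp4f13, Cyp2u1, Cyp46a1 and Cyp51, and a CCAAT box (CCAAT or ATTGG) in those of Cyp4f13, Cyp2r1 and Cyp39a1. That of Cyp46a1 held the most matches, 6, of which 3 were GC boxes and 3 were GCGTG.

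Promoters of P450 genes were open less often than those of protein-coding genes in general. Of the 94 genes, 14 (14.9%) were open, against 53.4% of all 21938 genes, a count of 11718. In families 1 to 4, 10 of 75 genes were open (13.3%): Cyp1b1, Cyp2d22, Cyp2j9, Cyp2r1, Cyp2s1, Cyp2u1, Cyp4f13, Cyp4f16, Cyp4f39 and Cyp4v3. In the steroid and sterol families, 3 of 15 were open (20%): Cyp39a1, Cyp46a1 and Cyp51. The orphan enzyme gene Cyp20a1, whose substrate is not known, was the 1 open gene of the remaining 4. The difference between the shares of the 2 main classes was not tested. With the start sites of all annotated transcripts, a choice added after the data were seen, 17 P450 genes were open (18.1% against 55.1%): Cyp2w1, Cyp4f37 and Cyp17a1 joined through start sites inside the gene, which gave 12 of 75 in families 1 to 4 and 4 of 15 in the steroid and sterol families.

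Other measures of the same windows gave the same order, but they describe the same 2 libraries and are not independent of the main count. Each library by itself, regardless of the other, gave a promoter peak at 16 P450 genes in replicate 1 (17% against 55% of all genes) and at 14 in replicate 2 (14.9% against 54.7%). In the longer list the count was 17 in both libraries (18.1% against 57.8%), with 12 of 75 in families 1 to 4 and 4 of 15 in the steroid and sterol families, and 21 in at least 1 library (22.3% against 62.2%). Base runs whose false discovery rate did not exceed 0.05, which come from a separate deposited file, lay within 1 kb of a start site in both libraries at 18 genes (19.1% against 58.9%), 12 of 75 and 5 of 15 by class. At a rate of at most 0.001 the count was 14 (14.9% against 54.2%).

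**Figure D1:**
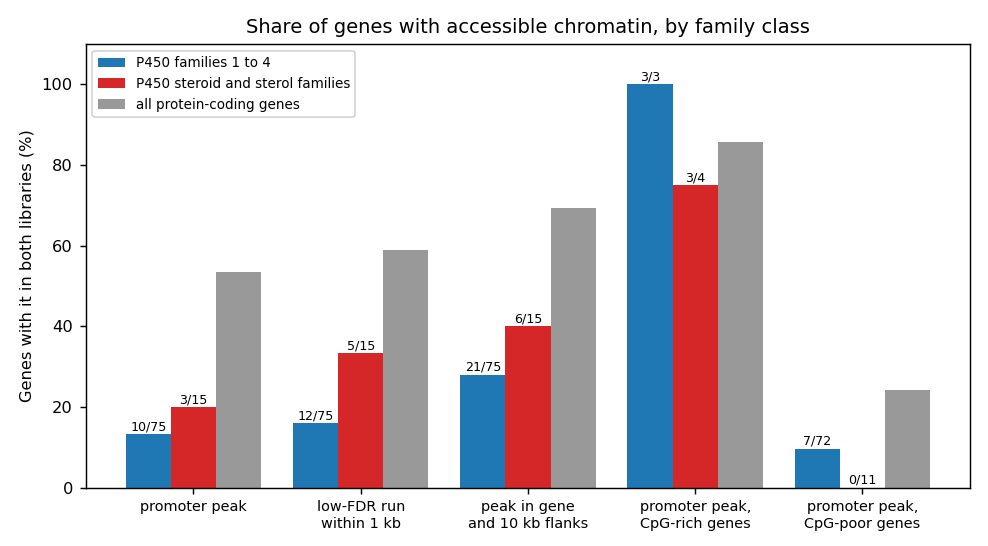
Share of genes, in percent, with each kind of accessible site in both libraries, for P450 families 1 to 4 (blue), the P450 steroid and sterol families (red) and all protein-coding genes (grey); numbers over the bars are genes with the site over genes in the class, and CpG-rich means a promoter CpG ratio of at least 0.6. For promoter peaks the blue and red bars stand at 13.3% and 20%, below the grey bar at 53.4%, and among CpG-rich genes they stand at 3 of 3 and 3 of 4.

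Among families 1 to 4, Cyp4f13 and Cyp2r1 had the highest promoter signals in both libraries. Cyp4f13, of the Cyp4f group that hydroxylates fatty acids and leukotrienes, had a signal of 9.75 in replicate 1 and 9.92 in replicate 2 (9.83 ± 0.114, SD, n = 2), at chr17:32947381-32947560 as called in replicate 1. Cyp2r1, the hydroxylase that makes the circulating form of vitamin D, had 6.52 and 6.95 (6.74 ± 0.304). Cyp2u1, a hydroxylase of long-chain fatty acids known from thymus and brain, had 4.49 and 4.87 (4.68 ± 0.269). These 3 genes kept the same order in both libraries and their values did not overlap. The Cyp2u1 peak also lay within 1 kb of the start of the non-coding gene 4930534D22Rik.

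Cyp1b1, an enzyme of oestrogen and aromatic hydrocarbon metabolism and a target of the aryl hydrocarbon receptor, had 5.32 and 3.93 (4.63 ± 0.988). Its peak, chr17:79715641-79715860 in replicate 1, lay upstream, with its centre at -690 bp from the start site in replicate 1 and at -700 bp in replicate 2. Cyp1a1, which oxidises polycyclic hydrocarbons, had a main-list promoter peak in replicate 1 alone (0.770), and the longer list held a peak there in replicate 2 (0.535). Cyp1a2, a liver enzyme that oxidises aromatic amines and caffeine, had no promoter peak in any list. The lowest false discovery rate near the Cyp1a1 start was 1.76e-07 in replicate 1 and 0.00401 in replicate 2.

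In family 4, Cyp4f16 had 3.53 and 4.06 (3.80 ± 0.370). Cyp4v3, the mouse counterpart of the fatty acid hydroxylase gene CYP4V2, had 1.49 and 1.54 (1.51 ± 0.0382). Cyp4f39, of the Cyp4f group, had 0.680 and 0.685 (0.682 ± 0.00344). Open family 4 promoters thus ran from the highest P450 value, that of Cyp4f13, to the second lowest, that of Cyp4f39.

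The other open family 2 genes, Cyp2d22, Cyp2s1 and Cyp2j9, had lower values than Cyp2r1 and Cyp2u1 in each library. Cyp2d22, of the Cyp2d group that oxidises many drugs, had 1.35 and 1.17 (1.26 ± 0.125). Cyp2s1, which is made outside the liver in epithelia, had 0.886 and 0.926 (0.906 ± 0.0286), in a peak shared with the non-coding gene Gm26707. Cyp2j9, of the group that makes epoxides from arachidonic acid, had 0.430 and 0.391 (0.410 ± 0.0270), the lowest of the 14. Its relative Cyp2j6 had a peak in replicate 1 alone (0.313). Cyp2d22, Cyp2s1 and Cyp2j9 all lay below the median main-list peak in each library.

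The 3 open genes of the steroid and sterol families were Cyp46a1, Cyp51 and Cyp39a1. Cyp46a1, the cholesterol hydroxylase best known from neurons, had 8.97 and 6.68 (7.82 ± 1.62), at chr12:108334001-108334340 in replicate 1. Cyp51, the lanosterol demethylase of cholesterol synthesis, had 4.48 and 4.38 (4.43 ± 0.0750), at chr5:4104661-4104880. Cyp39a1, which hydroxylates the oxysterol that Cyp46a1 makes, had 3.88 and 4.34 (4.11 ± 0.321). Cyp46a1 stood above both others in each library, and Cyp51 lay above Cyp39a1, with their closest values, 4.38 and 4.34, in replicate 2. The Cyp39a1 peak also lay within 1 kb of the start of the neighbouring Slc25a27, a mitochondrial carrier gene, and to which of the 2 promoters it belongs cannot be told apart. Outside these classes, Cyp20a1 had 5.20 and 4.29 (4.75 ± 0.641).

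The genes of steroid hormone synthesis had no promoter peak in any list at the start sites of the basic set. This held for Cyp11a1, which makes pregnenolone from cholesterol, for Cyp17a1 and Cyp21a1, for Cyp11b1 and Cyp11b2, which complete glucocorticoids and aldosterone, and for the aromatase gene Cyp19a1. The bile acid genes Cyp7a1 and Cyp8b1, the vitamin D genes Cyp24a1 and Cyp27b1, and the retinoic acid genes Cyp26a1, Cyp26b1 and Cyp26c1 had none either. Near the start sites of these 13 genes no base run at a rate of 0.05 or lower was listed in either library. Since the depth is unknown, a weak signal or one confined to few cells may lie below what the lists record. Cyp27a1, the sterol hydroxylase of mitochondria, had a peak of the longer list in both libraries (0.465 and 0.326), and Cyp7b1, which hydroxylates oxysterols, in replicate 2 alone (0.254). Their lowest false discovery rates were 0.000988 and 0.0144 for Cyp27a1 and 0.0295 and 0.00496 for Cyp7b1, so these 2 genes make up the difference between 3 open steroid and sterol genes and the 5 with a low-rate run.

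In the longer list, family 4 held the remaining weak promoters. Cyp4f18, a hydroxylase of leukotriene B4, had a longer-list peak in both libraries (0.573 and 0.874). Cyp4f17 (0.502) and Cyp4b1 (0.307) had one in replicate 2 alone. The remaining 73 genes had no promoter peak in any list: 60 of families 1 to 4, 10 of the steroid and sterol families and 3 of family 26.

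**Figure D2:**
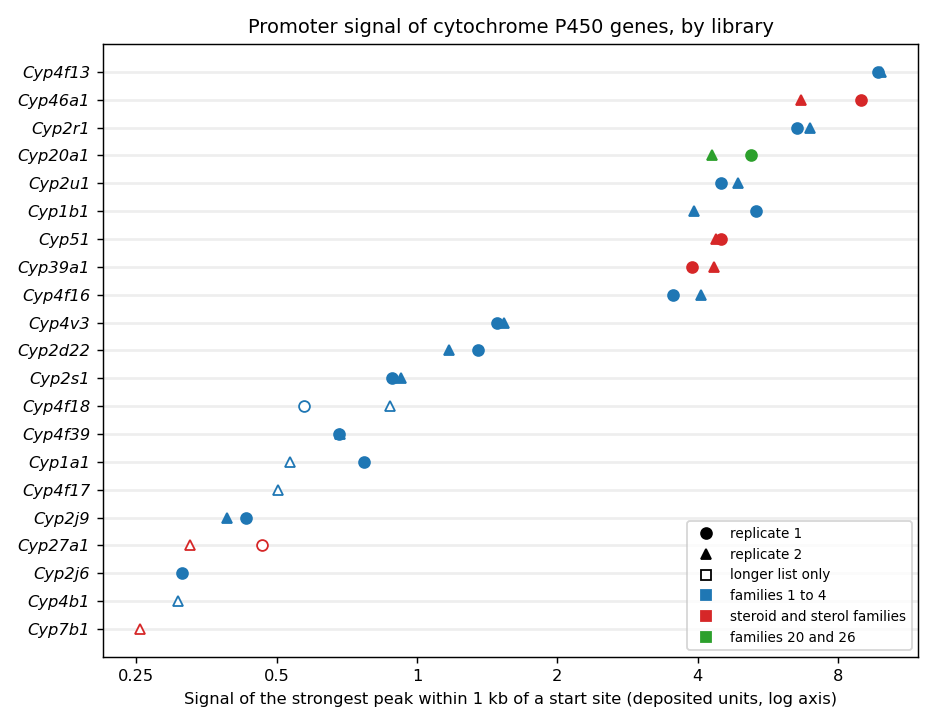
Signal of the strongest peak within 1 kb of a start site, in the units of the deposited lists on a log axis, for each of the 21 P450 genes with a promoter peak in any list; circles are replicate 1, triangles replicate 2, filled symbols the main list, open symbols the longer list only, and colours the family class. Genes are ordered by their mean; Cyp4f13 is at the top with 9.75 and 9.92, and Cyp7b1 at the bottom with 0.254 in replicate 2.

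At the 14 open genes, both libraries gave similar promoter peaks. The strongest peaks of these genes overlapped between libraries in 14 of 14 cases, against 96.1% of 11718 open genes. Open genes have a peak within 1 kb in both libraries by definition, so this overlap was largely set by the choice of genes. A further 2 P450 genes, Cyp1a1 and Cyp2j6, had a main-list promoter peak in replicate 1 alone. The log2 ratio of replicate 2 to replicate 1, less the median of -0.17 over all 37494 pairs of overlapping peaks, ran from -0.27 at Cyp1b1 to 0.37 at Cyp4f16. All 14 ratios lay within 0.44, which was 1 SD over all pairs. With 2 libraries of 1 group no exact test can reach 0.05, so no test between libraries was made.

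Compared with other open promoters, those of P450 genes had lower signals. The median signal of the 14 open P450 genes was 4.18 in replicate 1 and 4.17 in replicate 2, and that of all open genes was 5.89 and 5.23. The 10 open genes of families 1 to 4 had medians of 2.51 and 2.73, and the 3 steroid and sterol genes of 4.48 and 4.38. Among all open genes, Cyp4f13 stood at percentile 75.8 in replicate 1 and 78.8 in replicate 2, and Cyp46a1 at 71.3 and 61.0. Cyp2r1 stood at 55.0 and 62.8, while Cyp2j9 stood at 0.239 and 0.188.

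Promoter sequence differed between P450 genes and genes in general. The ratio of observed to expected CpG, counted 500 bp to each side of the most upstream start site, had a median of 0.156 over the P450 genes, 0.137 in families 1 to 4 and 0.252 in the steroid and sterol families, against 0.571 over all genes. Only 9 P450 genes reached 0.6: Cyp2r1, Cyp2u1, Cyp4v3, Cyp24a1, Cyp39a1, Cyp46a1, Cyp51, Cyp20a1 and Cyp26a1. Of these 9, 7 were open (77.8%), against 85.6% of all genes with such promoters, and the exceptions were Cyp24a1 and Cyp26a1. Of the 85 P450 genes below 0.6, 7 were open (8.24%), against 24.3% of all such genes, and all 7 belonged to families 1 to 4, with 7 of 72 open there and 0 of 11 in the steroid and sterol families. The 7 open genes below 0.6 had mean signals from 0.410 to 9.83 with a median of 1.26, and the 7 above it from 1.51 to 7.82 with a median of 4.68. Cyp4f13 at 9.83 thus combined the highest signal with a CpG ratio of 0.240. CpG content moved with the class and with openness, and its part in the low share of open P450 promoters was not tested.

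Many P450 genes have near copies, which affects how well short reads can be placed. The share of 32-base words within 1 kb of the most upstream start site that occur once in the genome had a median of 92.4% over the P450 genes, 90.8% in families 1 to 4, 96.6% in the steroid and sterol families and 99.6% over the 14 open genes. It was under 50% at 7 genes, among them Cyp2c29 with 7.92% and the pair Cyp2a4 and Cyp2a5 with 34.5% each. Among the 55 genes with at least 90%, 13 were open (23.6%), 9 of 40 in families 1 to 4 (22.5%) and 3 of 11 in the steroid and sterol families (27.3%). The same share was not computed over all genes with such sequence, so the part of read placement in the low count was not tested. How reads from near copies or from the CAST chromosomes were aligned is not given in the sources used here. Cyp4f16, with 73.7%, was the 1 open gene below 90%.

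**Figure D3:**
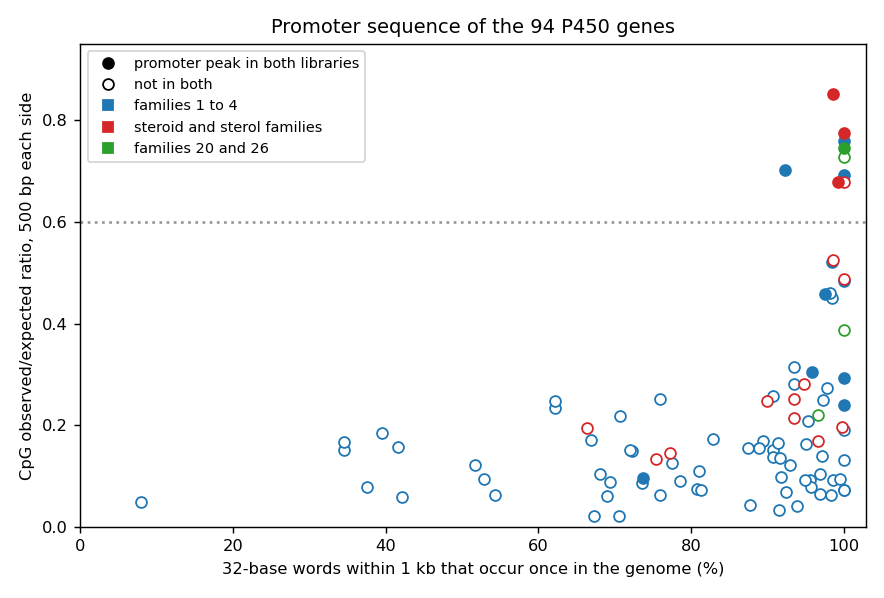
Each of the 94 P450 genes by the share of unique 32-base words within 1 kb of its most upstream start site (percent) and by its promoter CpG observed/expected ratio; filled points are open in both libraries, colours are family classes, and the dotted line marks 0.6. Above the line 7 of 9 points are filled, below it 7 of 85, and 13 of the 14 filled points lie at 90% unique words or more.

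Short motifs were counted on both strands in the window from 250 bp before to 50 bp after a start site, at 1 start site per P450 gene, and matches to different motifs could share bases. The TATA box TATAAA was present at 33 of 94 P450 genes (35.1%), 28 of them in families 1 to 4, against 11.8% of 41525 start sites of protein-coding genes, and at 0 of the 14 open genes. The GC box GGGCGG was present at 20 genes (21.3% against 45.4%) and at 9 of the 14 open ones. GCGTG, the core bound by the aryl hydrocarbon receptor, was present at 19 (20.2% against 38.1%) and at 11 open ones. The CCAAT box was present at 48 (51.1% against 36.8%) and at 7 open ones. For no motif was the share over open genes in general computed, so the counts at open P450 genes have no such share beside them. Of the 11718 open genes in general, 8914 had a promoter CpG ratio of at least 0.6. The 41525 sites include every start site of a gene, so they are not matched to the 1 site per P450 gene.

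Rarer motifs were present at few P450 genes. AAGGTCA, bound by the steroidogenic factor SF-1, was at 8 genes (8.51% against 3.83%) and at 1 open gene, Cyp2u1. TGTGGT, bound by RUNX factors, was at 7 (7.45% against 14.7%), with Cyp39a1 as the 1 open gene, and CCGGAAG, bound by ETS factors, was at 2 (2.13% against 11.2%), with Cyp4f13 as the 1 open gene. The sterol regulatory letters TCACNCCAC were at 2 (2.13% against 1.16%) and at no open gene, so not in this window of Cyp51. The cyclic AMP element TGACGTCA was at 0 genes, against 2.29% of start sites. A match describes the letters only, and an absent match says nothing of the factor.

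Footprints, short stretches inside accessible DNA that are protected from cutting, covered some of the motifs in the printed sequences. In the Cyp46a1 promoter, the GC boxes that begin at -140, -80 and -60 from the start site and the GCGTG matches at -185 and -154 lay inside footprints in both libraries, and the GCGTG match at -89 in neither. The GC boxes of Cyp51 at -86 and of Cyp2u1 at -104 lay inside footprints in both libraries, as did the CCAAT box of Cyp2r1 at -146. The GC box of Cyp4f13 at -95 lay inside 1 in replicate 2 alone, and the CCAAT boxes of Cyp4f13 at -35, Cyp2r1 at -187 and Cyp39a1 at -182 in neither library. The strongest promoter peak held 7 footprints in replicate 1 and 5 in replicate 2 at Cyp46a1, 5 and 4 at Cyp4f13, and 2 and 3 at Cyp51. Footprints carry no usable score, and what bound these sites was not measured.

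Over the gene body and flanks, promoter included, most P450 genes had no peak. Counting main-list peaks over the gene body plus 10 kb flanks, 30 of 94 genes had a peak in both libraries (31.9%, against 69.3% of all genes). The count was 21 of 75 in families 1 to 4 (28%), 6 of 15 in the steroid and sterol families (40%) and 3 of 4 in families 20 and 26. In 56 genes (59.6%) neither library had a peak, against 26.5% of all genes, and the median number of peaks per gene was 0 in each library, against 2. In the longer list 38 genes had a peak in both libraries (40.4% against 75.1%). Since neighbours share flanks, the peaks amounted to 73 distinct ones in replicate 1 and 64 in replicate 2.

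Several subfamilies in tandem arrays had few peaks or none. None of the 15 Cyp2c, 7 Cyp3a, 5 Cyp2b, 5 Cyp4a and 4 Cyp2a genes had a promoter peak in any list. None had a main-list peak in the gene and flanks in both libraries either. Of all genes, 62.2% had a longer-list promoter peak in at least 1 library. A main-list peak in the gene and flanks in both libraries was present at 69.3%. All 7 P450 genes with under 50% unique 32-base words were Cyp2a, Cyp2b or Cyp2c genes, and the part of read placement there was not tested. The Cyp2c array from Cyp2c55 to Cyp2c70, 14 genes over 1200 kb of chromosome 19, held 0 main-list peaks in each library and 2 longer-list peaks in each. Both Cyp3a arrays, the arrays from Cyp4x1 to Cyp4a29 and from Cyp11b1 to Cyp11b2 also held 0 in each library. Arrays that hold Cyp2b and Cyp2a genes beside others had some: that from Cyp2s1 to Cyp2a4 held 9 and 5 peaks, 1.69 and 0.939 per 100 kb, and that from Cyp2b23 to Cyp2t4 held 6 in each library, 1.17 per 100 kb, of which 3 lay at the promoter of Egln2. The genome as a whole held 1.86 peaks per 100 kb in replicate 1 and 1.83 in replicate 2. Taking genes less than 200 kb apart as an array, there were 14 arrays with 70 genes, and 9 arrays had fewer peaks per 100 kb than the genome in both libraries. In arrays 6 of 70 genes were open (8.57%), and outside them 8 of 24 (33.3%). Unique 32-base words had a median of 88.4% in arrays and 98.6% outside, and their part in this difference was not tested.

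The Cyp4f arrays on chromosome 17 had more peaks per 100 kb than the genome in both libraries. The genome value includes DNA far from genes, and no density over genes with their flanks is given beside it. All protein-coding genes had a median of 2 peaks per gene with 10 kb flanks, at a median gene length of 17.4 kb. Whether any array is dense for windows of this kind was not tested. The array from Cyp4f39 to Cyp4f15, with 6 genes over 271 kb, held 11 peaks in each library, 4.06 per 100 kb, and that from Cyp4f14 to Cyp4f13, with 2 genes, held 4 in each, 6.42 per 100 kb. All 9 Cyp4f genes, Cyp4f18 on chromosome 8 included, had a peak in the gene and flanks in both libraries, against 69.3% of all genes. Only 3 were open at the promoter, against 53.4% of all genes. Neighbours shared some of these peaks (Cyp4f16 with Cyp4f17, Cyp4f15 with Cyp4f40 and Cyp4f13 with Cyp4f14), so the 9 are not separate counts. The strongest Cyp4f peak away from start sites, chr17:32528861-32529060 in replicate 1, lay near the end of Cyp4f17 and upstream of Cyp4f16, with signals of 6.75 and 4.42, above the Cyp4f16 promoter in each library. A peak inside Cyp4f37 had 3.73 and 2.07, and 1 upstream of Cyp4f13 had 3.18 and 1.55. Weaker ones lay inside Cyp4f18 (1.34 and 1.41), Cyp4f15 (0.752 and 0.731) and Cyp4f14 (0.975 and 0.535).

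The 2-gene array of Cyp1a2 and Cyp1a1 held 3 peaks in replicate 1 and 2 in replicate 2, 6.40 and 4.27 per 100 kb. The strongest of them, 5.39 and 4.04, lay downstream of Cyp1a1 at the promoter of Edc3, a gene of messenger RNA decapping. The Cyp2d array gave 0.676 per 100 kb in replicate 1 and 2.25 in replicate 2, and the excess came from 7 weak peaks (0.124 to 0.724) downstream of Cyp2d22, where neither list of replicate 1 held a peak. The 2 peaks in the flank of Cyp2d11 were those of the Cyp2d22 promoter. The array of Cyp26c1 and Cyp26a1 also stood above the genome, with 1 peak in each library, 2.78 per 100 kb over 36 kb.

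**Figure D4:**
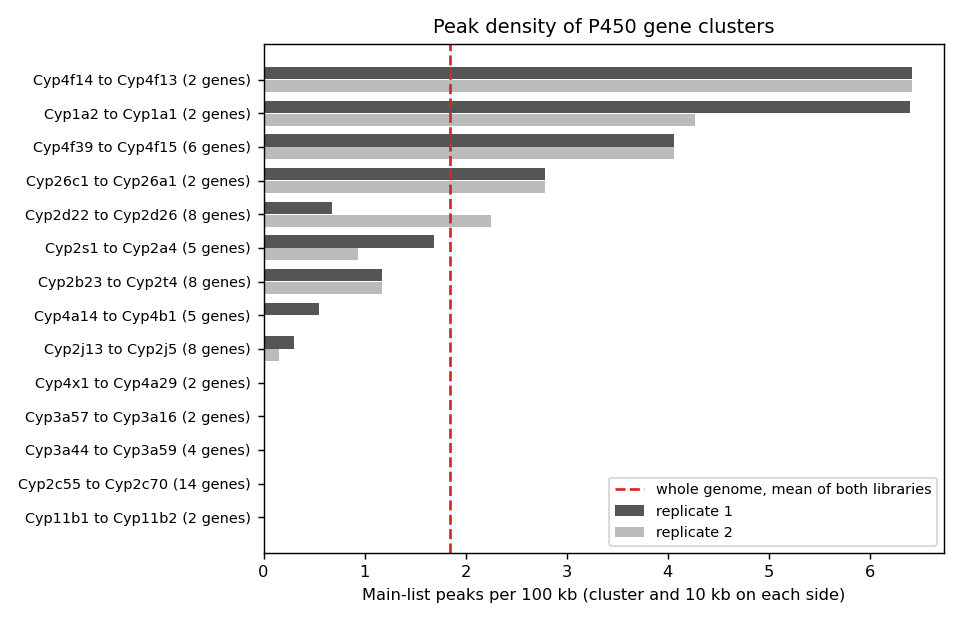
Main-list peaks per 100 kb in each of the 14 arrays of P450 genes and 10 kb on each side, with dark bars for replicate 1, light bars for replicate 2 and a dashed line at the mean of both libraries over the whole genome. The Cyp4f and Cyp1a arrays lie right of the line with 4.06 to 6.42. So does the array of Cyp26c1 and Cyp26a1 with 2.78 in each library, from 1 peak in each. The Cyp2c and both Cyp3a arrays are among 5 arrays that stand at 0.

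Distal peaks, over 1 kb from the start sites of the gene itself, were present in both libraries at 22 of 94 genes (23.4%, against 53.3% of all genes), 15 of 75 in families 1 to 4 and 5 of 15 in the steroid and sterol families. There were 49 distinct ones in replicate 1 and 45 in replicate 2, of which 32 in each overlapped a peak of the other library. Another protein-coding gene started within 1 kb of 7 of them in each library. Their median signal was 1.503 in replicate 1 and 1.102 in replicate 2.

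Among genes without a promoter peak in the main list, Cyp2w1, Cyp2t4, Cyp4f17, Cyp11a1 and Cyp27b1 had the most peaks nearby. At Cyp11a1, 2 peaks in replicate 1 and 4 in replicate 2 lay upstream, the strongest at chr9:57997941-57998140 with 6.76 and 7.13. That peak lay 16.6 kb from the Cyp11a1 start site of the basic set, at the start of Gm17322, a long non-coding RNA gene that overlaps the Cyp11a1 locus. A replicate 2 peak of 0.776 at chr9:58005850-58006025 lay near the outermost annotated start of Cyp11a1, at 58006411, which belongs to a read-through transcript outside the basic set; replicate 1 had no main-list peak there. At Cyp27b1, which activates vitamin D, the 3 peaks of each library lay in the flanks: 5.43 and 5.31 at the promoter of the ubiquitin ligase gene March9, 2.00 and 1.61 at those of Mettl1 and Eef1akmt3, and 3.51 and 2.24 away from other coding starts. Signals in the flanks of this short gene thus lay partly at promoters of other genes.

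The same held for family 2. Of the 6 and 4 peaks around Cyp2w1, the strongest, 8.80 and 4.62, lay at the promoter of Cox19, a copper protein gene of mitochondria, and a peak of 4.73 and 2.98 lay downstream away from coding starts. Around Cyp2t4 there were 4 and 5 peaks, the strongest (8.22 and 8.79) at the promoter of the oxygen sensor gene Egln2, and one of 5.92 and 5.64 at chr7:27159881-27160180, downstream of Cyp2t4 and away from other coding starts. In other genes without an open promoter, single peaks inside the gene were shared by both libraries at Cyp17a1 (1.09 and 0.939, near an internal start site outside the basic set) and at Cyp26b1 (1.25 and 1.29), and 1 downstream of Cyp26a1 (1.24 and 0.659). At open genes, Cyp46a1 had another shared peak further upstream (2.59 and 1.45), Cyp39a1 one inside the gene (2.71 and 1.10) and Cyp1b1 one further upstream (0.904 and 1.04).

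Genes of related pathways were counted in the same way, beside the 53.4% of all genes that were open. Of redox partners and haem enzymes, 11 of 11 had an open promoter, with a median signal of 7.196. Por, the oxidoreductase that feeds the microsomal enzymes, had 19.7 and 19.1, and Fdxr, which reduces ferredoxin in mitochondria, had 18.4 and 18.6. The ferredoxin gene Fdx1 had only 2.28 and 1.65. Of enzymes and regulators of cholesterol synthesis, the pathway of Cyp51, 25 of 25 were open, with a median of 9.69 and a range of means from 3.41 at Ebp to 16.6 at Dhcr7, whose peak also lay near the start of Nadsyn1. Cyp51, at 4.43, lay above 3 of these 25 genes. Lss, which makes the lanosterol that Cyp51 demethylates, had 10.6 and 9.60, above Cyp51 in each library.

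Of steroid hormone genes outside the P450 families, 2 of 13 were open (15.4%, against 53.4% of all genes). These were Srd5a1, a steroid reductase (17.6 and 19.7, in a peak that also lay within 1 kb of the start of Nsun2), and Hsd11b1, which regenerates active glucocorticoid (4.71 and 5.21). Hsd11b2, which inactivates it, had a main-list peak in replicate 1 alone (1.15), and Star, Hsd3b1, the SF-1 gene Nr5a1 and 7 others had no main-list promoter peak. None of the P450 genes of hormone synthesis was open by the same measure.

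Of 15 receptors and factors that act on P450 genes, 9 were open (60%), near the 53.4% of all genes. The aryl hydrocarbon receptor gene Ahr had 4.57 and 3.33, its partner Arnt 4.796 and 4.703, its repressor Ahrr 1.08 and 0.620, and the vitamin D receptor gene Vdr 1.73 and 1.67. Those without a main-list promoter peak included the drug sensors Nr1i2 and Nr1i3, the bile acid receptor Nr1h4, Nr0b2 and the liver factor Hnf4a. Of these 5, Nr1h4 had a longer-list peak in replicate 2 (0.294). Of 11 enzymes, most of which conjugate or hydrolyse P450 products, 7 were open (63.6%, against 53.4% of all genes). The highest signal was at the thiopurine methyltransferase gene Tpmt (13.0 and 14.5). Its peak also lay within 1 kb of the start of Kdm1b. Of 2 P450 genes under other symbols, Tbxas1, the thromboxane synthase, was open (1.15 and 1.77, near the start of Hipk2 as well), and Ptgis, the prostacyclin synthase, was not. The 2 Tbxas1 values are of different sites, since its strongest peaks did not overlap between libraries. They lay at chr6:38875521-38875980 in replicate 1 and at chr6:38876221-38876440 in replicate 2.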

How the data were processed

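DNase-seq of thymus was used from 2 libraries of 1 group. Per the file notes, the authors made every file from 1 library without pooling, on mm10; the sources used here do not name the aligner, the peak caller or any version or threshold. The deposited peak lists give 1 signal value per peak, on an unstated scale. The q-values per base run are those the authors deposited, as a false discovery rate of the cut rate, and run up to 0.05. The deposited footprints carry the constant 0.01, so only their positions were used.

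The P450 genes, the pathway and marker lists and the motifs were chosen with earlier results of these data known. The shorter list of each library was the main one. Peaks were placed by their centres on GENCODE vM21 basic transcripts and the GRCm38 sequence, whose chromosome lengths contain all peaks; coordinates count from 1. Promoter signal is that of the strongest peak within 1 kb, and log2 ratios between libraries had the median over overlapping pairs (at least 1 bp) subtracted. Arrays join P450 genes less than 200 kb apart. For motifs, the start site nearest the strongest promoter peak was used, or the most upstream one.

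Counts are set beside the same counts over all 21938 genes, without a test. Genes were named by rule: all with a main-list promoter peak in either library, those with a longer-list one in both, and the 8 others with the most peaks in the gene and 10 kb flanks. Cyp4f37, Cyp17a1, Cyp26a1, Cyp26b1, Cyp4b1, Cyp7b1 and the steroid, bile acid and vitamin genes without a peak were named after their values were seen. Unique 32-base words and the start sites of all transcripts were added after the data were seen. One list gene and 1 motif are not reported here. Of the counting steps, only those that place a peak near a start site or in a gene and its flanks were tested on simulated peaks. Python 3.11.15 with numpy 2.4.6, pandas 2.3.3 and matplotlib 3.10.9 was used. Depth is unknown, so no counting interval is given.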

Additional observations from a re-analysis of the deposited data

How the results depend on the processing

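With the stronger 50% of peaks of each library, 9 P450 genes were open (46.2% of all genes), 5 of them in families 1 to 4, and 17 had a peak in the gene and flanks (58.3%), 11 of them in families 1 to 4. Without flanks, 18 genes had a peak (47.2%), 13 in families 1 to 4 and 3 in the steroid and sterol families; with flanks of 50 kb, 50 did (79.7%), 33 and 13. The 5 steroid and sterol genes with a low false discovery rate fell to 3 at a limit of 0.01 and 3 at 0.001; Cyp7b1 and Cyp27a1 passed only 0.05 in both libraries. All other counts stayed within 1.5 times the reported ones under windows of 500 and 2500 bp, any overlap, overlapping peaks and 1 start site. With 1 library alone, open P450 genes numbered 14 to 16, those with a peak in the gene and flanks 30 to 38, and those with a low false discovery rate 20 to 21. In families 1 to 4 these ranges were 10 to 12, 21 to 28 and 14 to 15, and in the steroid and sterol families 3 to 3, 6 to 7 and 5 to 5. The 14 promoter signals had the same value in the longer list and within 2500 bp; with 2 libraries, leaving out 1 cannot move a mean by over 1 SD, so it tests nothing here. No paired analysis was possible because there was only 1 group. The 94 P450 genes together stood below all genes in each setting named here, but with flanks of 50 kb the steroid and sterol genes, 13 of 15, stood above them. Unknown depth and 2 libraries limit what weak peaks can show.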
